A study of Mus musculus with 4 samples.

Results

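Type 2 conventional dendritic cells (cDC2) were followed among the cells of mouse lung tumors profiled by single-cell RNA sequencing. The cells were chosen by measured counts of unique molecular identifiers (UMIs, each standing for 1 captured RNA molecule). A member had at least 3 UMIs over Cd209a, Clec10a, Ccl17 and Mgl2 together, at least 1 Flt3 UMI, at most 1 UMI over Xcr1 and Clec9a, at most 2 of Siglech, at most 3 over C1qa, C1qb and C1qc, at most 1 of Fscn1, and no UMI of Cd79a, Cd3d, Cd3e or Cd3g. Of 19892 cells kept from 20351 deposited, 77 met the rule, a share of 0.387% (95% exact binomial interval 0.306% to 0.484%). They were 39.3% (32.4% to 46.5%) of the 196 cells that fell in the gates for cDC2, type 1 conventional dendritic cells (cDC1, 28 cells) and mature dendritic cells (91 cells).

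The tumors came from 4 female mice, all given Lenti-Cre into the trachea, followed for 16 weeks and given 4 mg doses of tamoxifen over 2 weeks. All carried KrasLSL-G12D, an oncogene that Cre switches on, together with Lkb1XTR/XTR, alleles of the tumor suppressor that Cre inactivates and FLP repairs. The 2 Restored mice had Rosa26LSL-tdTomato/FLPo-ERT2, so that tamoxifen activated the FLP recombinase in them. The 2 Non-Restored mice had Rosa26LSL-tdTomato alone and received tamoxifen all the same. The promoter that drove Cre and the ages of the mice were not given in the labels. Viable cells of every type were sorted from microdissected, enzyme-digested tumors without an immune cell enrichment. The 4 libraries were analysed here as 1 pooled matrix without a map from cells to mice, so Restored and Non-Restored cDC2 were not compared, no spread between mice could be had, barcodes shared between libraries could not be counted, and no test was run. All intervals below cover counting error only. They are exact 95% intervals, from the Poisson distribution for a level and from the binomial distribution for a share or a ratio of 2 levels.

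Conventional dendritic cells take up antigen in a tissue, display it on MHC molecules and carry it to lymph nodes, where they activate T cells. cDC2 are the branch that depends on IRF4 and presents chiefly to CD4 T cells on MHC class II, whereas cDC1 depend on IRF8 and BATF3 and cross-present to CD8 T cells. Both arise from precursors that carry FLT3, the receptor for the growth factor FLT3L, and on activation both can enter a mature CCR7+ state that migrates. In the lung, cDC2 overlap with monocyte-derived cells in many surface proteins, which makes their boundary with monocytes a standing question.

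The cDC2 held a median of 5413 UMIs (650 to 13116) and 1718 genes (395 to 3501), and 438022 UMIs in all. Levels are given as CPM, the UMIs of a gene summed over a class and scaled to the same total in every class, and 3 UMIs, the limit that a count of 0 allows, amounted to 6.85 CPM in cDC2. The comparison classes were cDC1, mature dendritic cells gated on Fscn1 and Ccr7, and 106 classical monocytes gated on Ly6c2 and Csf1r with monocyte genes. The cDC1 and monocyte gates also allowed at most 2 UMIs over Cd209a, Clec10a, Ccl17 and Mgl2, and the monocyte gate no Flt3 UMI. A gene counted as higher or lower when it reached 50 CPM in either class and differed at least 2-fold, with the genes of the gates left out. Genes under 50 CPM in both classes were left out, so a gene that passed through 1 class alone was likelier to differ. C1q macrophages (2138 cells), T cells (3633) and B cells (1566) served as a reference for levels. Reads shared by near-identical genes, such as H2-DMb1 and H2-DMb2 or the Cd209 and Ifitm families, may be split between copies, so single members of these families are uncertain.

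The rule drew on genes of different kinds. Cd209a and Clec10a encode C-type lectins, Mgl2 a lectin related to Clec10a, and Ccl17 a chemokine that attracts CCR4+ T cells. Of the 77 cDC2, 55 had an Mgl2 UMI, 46 a Ccl17 UMI, 45 a Cd209a UMI and 35 a Clec10a UMI. All 4 genes were seen together in 7 cells, and the most frequent combinations were Ccl17 with Mgl2 alone (19 cells), Cd209a with Ccl17 and Mgl2 (13 cells) and Cd209a with Clec10a (12 cells). Clec10a and Ccl17 met in 12 of the 77. These counts describe the members and were shaped by the rule, since a cell low in one of the 4 genes had to reach the sum through the others. At the threshold, 10 members had exactly 3 UMIs over the 4 genes and 13 cells stayed outside with 2. Flt3 was the stricter line, since 60 members had exactly 1 Flt3 UMI and 283 cells that passed every other line had none. Of these 360 cells together, 21.4% (17.3% to 26.0%) had a Flt3 UMI, against 0.138% of T cells and 0.373% of C1q macrophages, and against 12.4% (7.11% to 19.6%) of monocytes, 17.6% (10.4% to 27.0%) of mature dendritic cells and 59.6% (44.3% to 73.6%) of cDC1 gated without regard to Flt3. The interval of the 360 cells overlapped those of monocytes and mature dendritic cells. These shares describe a gene that chose the members.

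**Figure D1:**
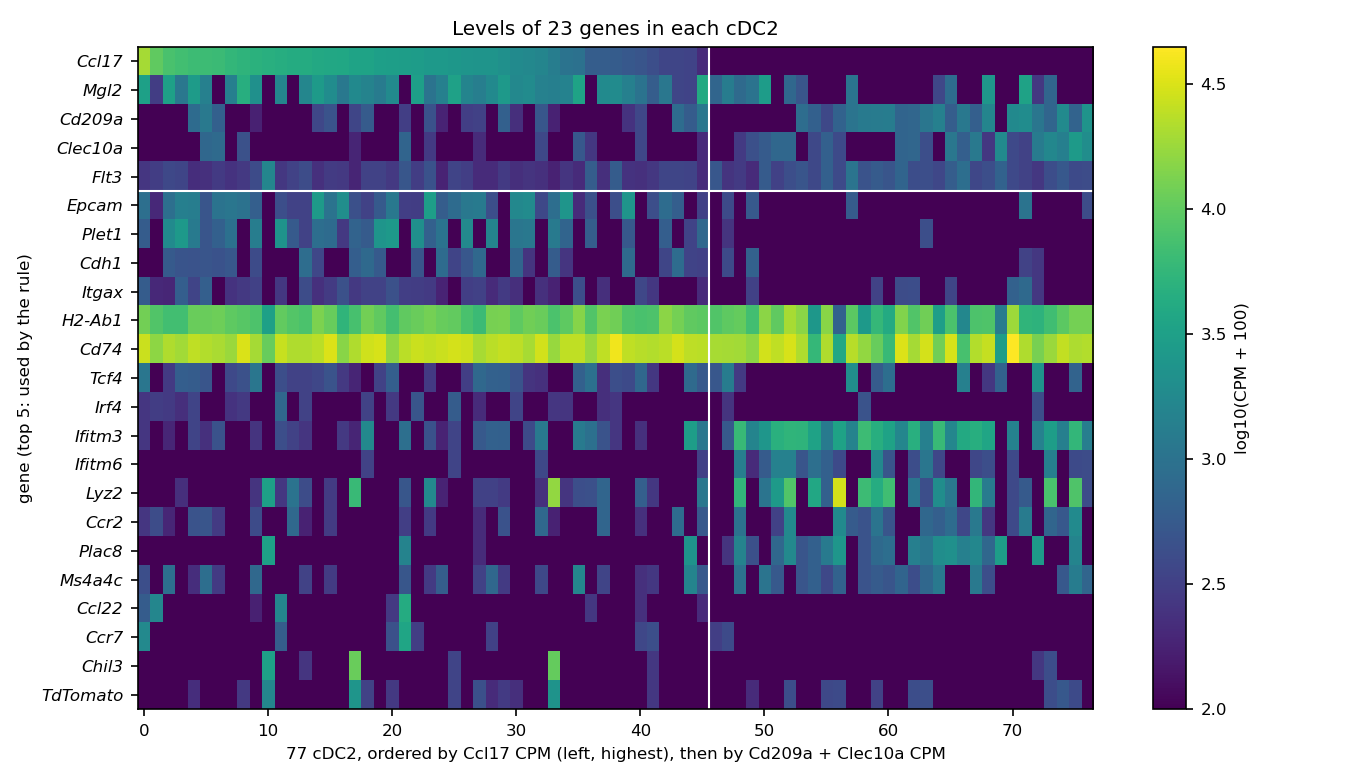
Each column is one of the 77 cDC2 and each row a gene, with color giving log10(CPM + 100). Columns run from the highest to the lowest Ccl17 level, the vertical line separates 46 cells with from 31 without a Ccl17 UMI, and the rows above the horizontal line are genes that the rule used. H2-Ab1 and Cd74 run through all columns, while Epcam and Plet1 lie mostly left of the vertical line and Ifitm3, Plac8 and Ifitm6 mostly right of it.

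Genes that the rule did not use bore out the label in part. H2-Ab1, a chain of MHC class II, and Cd74, its invariant chain, were detected in 77 of 77 cDC2. With every cell thinned to 1000 UMIs, H2-Ab1 was found in 45 of 45 cDC2 with a Ccl17 UMI and in 30 of 31 without. Cd74 was found in 45 of 45 and 31 of 31. In T cells, which should lack them, the thinned shares were 2.87% and 8.14%. Class II genes do not single out cDC2, since the listed ones summed to 51285 CPM in cDC2 and 60863 CPM in C1q macrophages. Itgax, encoding CD11c, was seen in 42 cells, Sirpa, the inhibitory receptor used to sort cDC2, in 31, and Irf4 in 22. Of 106 monocytes, 45 had a Sirpa UMI, 6 an Itgax UMI and 6 an Irf4 UMI, so Sirpa did not set cDC2 apart from monocytes. Zbtb46, a factor restricted to conventional dendritic cells among myeloid cells, was at 20.6 CPM (9.40 to 39.0) from 9 UMIs in 8 cells, against 7.26 CPM in C1q macrophages. Esam and Clec4a4, which mark the cDC2 of spleen, had no UMI. Markers of other lineages were low: the 12 T and NK cell genes summed to 11.4 CPM with 8 at 0, and 6 of 10 B cell genes were at 0 with a sum of 132 CPM.

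Some cDC2 carried transcripts typical of other cells, and the source of these transcripts was not tested. TdTomato, the reporter that Cre switches on, was at 176 CPM (139 to 220) from 77 UMIs, of which 54 lay in 2 cells. The same 2 cells held 255 of the 263 UMIs of Chil3, a gene of alveolar macrophages, and 275 of the 670 of Lyz2, encoding lysozyme. No other cDC2 had more than 3 TdTomato UMIs, and without the 2 cells TdTomato was at 55.6 CPM, Chil3 at 19.3 CPM and Lyz2 at 954 CPM. The 12 alveolar macrophage markers summed to 1466 CPM in cDC2 with 2 at 0, and to 725 CPM (645 to 811) without the 2 cells, against 275 CPM in cDC1, 329 in mature dendritic cells and 1522 in monocytes. Of the 642 UMIs in that sum, 263 were Chil3 and 237 Plet1, and the other 10 markers came to 324 CPM, or 184 CPM without the 2 cells. Chil3 was above cDC1 (73.9 CPM) and mature dendritic cells (187 CPM) through the 2 cells alone. The GFP feature had no UMI. Stk11, the gene that encodes LKB1, had 7 UMIs in 6 cells (16.0 CPM), too few to describe further.

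Irf4 and Irf8, the factors that define the 2 lineages, lay in opposite directions between cDC2 and cDC1. Irf8, the cDC1 factor, was at 54.8 CPM (35.1 to 81.5) in cDC2 and at 1061 CPM in cDC1, 19.4-fold lower. Irf4 was at 79.9 CPM (55.7 to 111) in cDC2, from 35 UMIs with at most 4 in a cell, and at 0 in cDC1, at least 5.05-fold higher. Among the 17 identity factors tested against cDC1, 5 were higher and 4 lower, where 13.3% of all 2962 genes tested were higher and 7.97% lower. The median log2 ratio was 0.39 over this list and 0.07 over all genes.

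Tcf4, the E protein best known for plasmacytoid dendritic cells, was more than 2-fold higher in cDC2 than in each of the 3 classes. It was at 324 CPM (273 to 382), with 0 to 13 UMIs in a cell and a median of 1, against 63.3 in cDC1, 92.4 in mature dendritic cells and 147 in monocytes. The log2 ratios were 2.36 (1.51 to 3.34), 1.81 (1.29 to 2.36) and 1.14 (0.68 to 1.61). Siglech, the plasmacytoid marker, was limited by the rule. Zeb2, a repressor that favors cDC2 and monocytes over cDC1, was at 139 CPM in cDC2, 15.8 in cDC1 and 487 in monocytes, and so lay between the 2 classes. Id2, an inhibitor of E proteins, was at 450 CPM in cDC2, below cDC1 (1035) and mature dendritic cells (1152) and above monocytes (158).

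**Figure D2:**
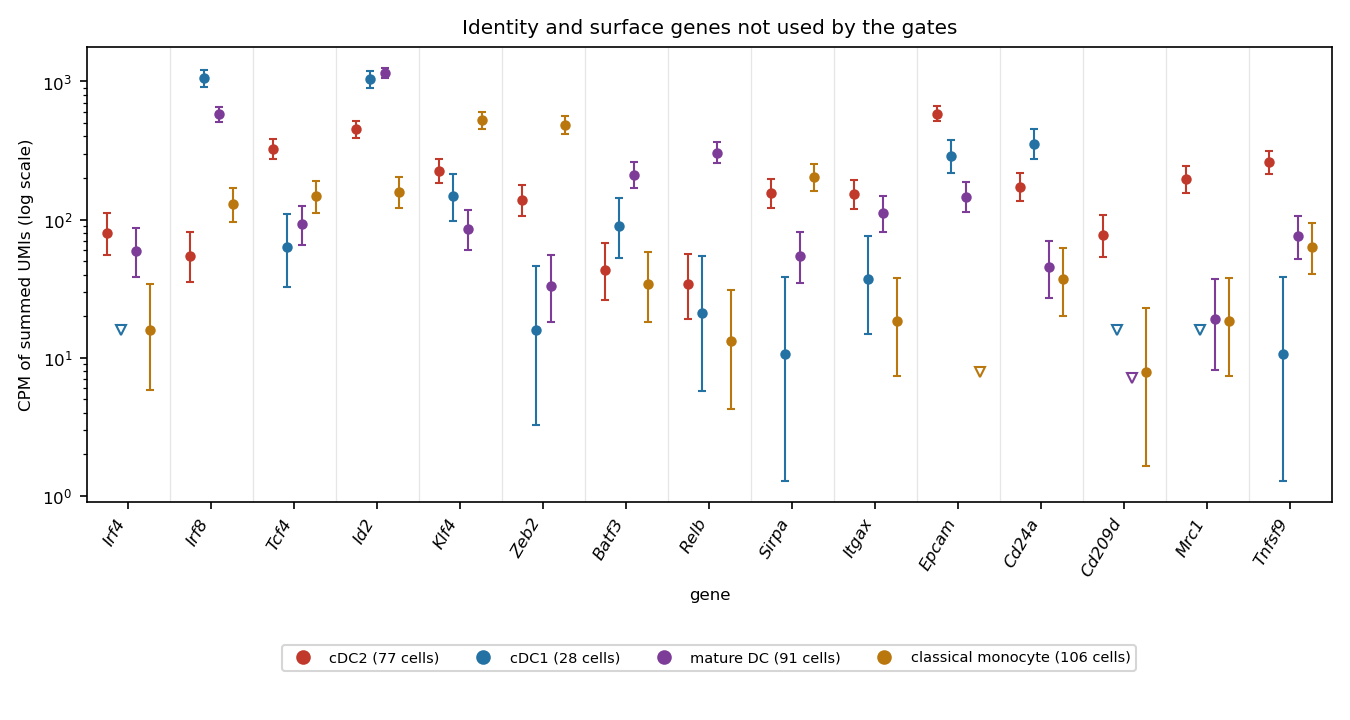
Levels of 15 identity and lineage genes as CPM of summed UMIs on a log axis, in cDC2 and the 3 comparison classes, with bars for the 95% counting interval and open triangles at the 3-UMI limit for a class without a UMI. Irf8 is lower and Tcf4 higher in cDC2 than in each of the other 3 classes, and Epcam, Cd209d and Mrc1 also have their highest level in cDC2.

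Among the surface genes, 6 of 17 tested were higher than in cDC1 and 8 lower, against 13.3% and 7.97% of all genes. Sirpa was at 155 CPM in cDC2 and 10.6 in cDC1, a log2 ratio of 3.88 (1.97 to 6.95). Itgae, encoding the CD103 integrin of lung cDC1, was at 32.0 against 280 CPM, and Naaa, a lipid amidase, at 219 against 1583 CPM. All 9 of the tested cDC1 markers were lower, with a median log2 ratio of -3.13. The cDC1 had been gated on Xcr1 and Clec9a, which the rule limited in cDC2. Both are outside the 9, but markers varying with them had to differ.

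Several genes chosen by the size of the ratio also separated the 2 conventional lineages. S100a4 and S100a6, encoding calcium-binding proteins, were at 1135 and 5237 CPM in cDC2 and at 47.5 and 686 CPM in cDC1. Tmem176a and Tmem176b, a pair of related membrane protein genes, were at 377 and 365 CPM against 5.28 CPM each, where cDC1 had 1 UMI of each gene. Mrc1, the mannose receptor CD206, was at 196 CPM and had no UMI in cDC1, at least 12.4-fold higher. S100a8, a neutrophil gene, was the furthest below cDC1, with a log2 ratio of -8.07, but its cDC1 level rested on 6 cells with neutrophil transcripts, without which the ratio was 0.28.

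Genes were also ranked by their smallest ratio over the 3 classes. The cDC1 and monocyte gates limited Cd209a, Clec10a, Ccl17 and Mgl2, so genes varying with these had to differ from those classes. Mrc1, Cfp, encoding the complement regulator properdin, Cdh1, encoding E-cadherin, Trp53i11, Cd209d, Mmp12, encoding macrophage elastase, Dab2, an endocytic adaptor, H2-DMb2, Ear2 and Axl led this ranking. Cfp was at 368 CPM (313 to 429) in cDC2 and at 15.8, 47.4 and 34.2 CPM in cDC1, mature dendritic cells and monocytes. Dab2 was at 283 CPM against 26.4, 64.0 and 15.8 CPM. C1q macrophages, outside the ranking, had several of these at a similar or higher level, with Cfp at 291, Dab2 at 339, Mrc1 at 247 and Mmp12 at 1279 CPM. Cd209d was the gene of the set that C1q macrophages lacked most, with 77.6 CPM in cDC2, 5.14 in C1q macrophages, 7.90 in monocytes and 0 in cDC1 and mature dendritic cells. Gpr65, a proton-sensing receptor, and Mxd1, a MAX-binding repressor, led the genes below all 3 classes, with 36.5 CPM for Gpr65 against 322, 225 and 153 CPM.

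MHC class II presentation was among the most abundant of the listed programs. The 13 genes of the list found in the data summed to 51285 CPM (50617 to 51960) in cDC2, 41282 in cDC1, 18602 in mature dendritic cells, 11231 in monocytes, 60863 in C1q macrophages and 895 in T cells. The class II genes are transcribed when the coactivator CIITA, encoded by Ciita, docks on factors bound at a shared promoter module. One element of that module is the Y box, whose core reads GATTGG on one strand and CCAATC on the other. Within the 250 bases before the start site, 4783 of 32851 RefSeq promoters (14.6%) held these letters on either strand. So did 7 of the 10 class II list genes searched, counted per gene over any start site rather than per promoter. H2-DMa matched at only 1 of its start sites. Cd74 was not among the 10, whereas Ifi30, which was not analysed here, was. The pieces before H2-Aa (the alpha chain of I-A), H2-Eb1 (the beta chain of I-E) and the 2 paralogs H2-DMb1 and H2-DMb2 (beta chains of the peptide-loading complex) are shown because their transcripts carry the class II results below. They are written 5′ to 3′ along the gene from RefSeq on GRCm38.p6, with the matching letters in capitals, and lie at chr17:34287824-34288073 (minus strand), chr17:34305617-34305866, chr17:34152941-34153190 and chr17:34144999-34145248 (plus strand).
H2-Aa: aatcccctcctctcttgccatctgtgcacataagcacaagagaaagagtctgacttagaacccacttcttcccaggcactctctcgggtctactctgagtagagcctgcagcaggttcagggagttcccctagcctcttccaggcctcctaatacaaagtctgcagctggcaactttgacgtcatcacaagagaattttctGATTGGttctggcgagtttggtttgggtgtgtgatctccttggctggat
H2-Eb1: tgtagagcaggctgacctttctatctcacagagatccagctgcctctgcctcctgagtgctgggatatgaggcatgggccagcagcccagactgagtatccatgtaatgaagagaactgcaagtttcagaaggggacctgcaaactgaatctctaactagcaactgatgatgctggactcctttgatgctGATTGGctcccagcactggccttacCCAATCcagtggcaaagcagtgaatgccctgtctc
H2-DMb1: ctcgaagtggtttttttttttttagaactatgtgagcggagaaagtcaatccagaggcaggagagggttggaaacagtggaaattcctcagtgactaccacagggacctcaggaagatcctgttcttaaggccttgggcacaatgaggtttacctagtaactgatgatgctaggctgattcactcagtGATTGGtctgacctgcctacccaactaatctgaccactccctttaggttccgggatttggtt
H2-DMb2: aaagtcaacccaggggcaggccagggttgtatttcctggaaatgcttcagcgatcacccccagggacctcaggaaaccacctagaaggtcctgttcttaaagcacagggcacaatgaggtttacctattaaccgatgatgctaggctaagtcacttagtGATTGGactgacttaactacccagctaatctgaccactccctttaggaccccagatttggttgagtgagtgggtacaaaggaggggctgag
The match began 49 bases before the start of H2-Aa, 62 before H2-DMb1 and 91 before H2-DMb2, and H2-Eb1 had one on each strand at 60 and 35 bases. A match is a description of the letters and was not tied to binding of any factor.

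Against cDC1, class II levels were close. H2-Ab1 was at 9388 CPM (9103 to 9679) in cDC2, with 2 to 133 UMIs in a cell and a median of 51, and at 8377 CPM in cDC1. The log2 ratio was 0.16 (0.08 to 0.25), and those of H2-Aa, H2-Eb1 and Cd74 were 0.38, 0.21 and 0.42. Of 12 class II genes tested, 2 were higher and 1 lower, shares near the 13.3% and 7.97% of all genes. The exception among the chains was H2-DMb2, 3.94-fold higher at 374 CPM, beside H2-DMb1 at 420 against 707 CPM in cDC1. The paralogs of the peptide-loading chain lay in opposite directions between the 2 lineages, although H2-DMb1 differed by less than 2-fold. Reads of this pair may be split between the copies, so the opposition is uncertain.

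Against mature dendritic cells and monocytes the class II genes were higher as a group. Of 12 tested over mature dendritic cells, 10 were higher and none lower, where 21.5% of all 2981 genes tested were higher and 13.2% lower. H2-Ab1 was 4.72-fold higher, with a log2 ratio of 2.24 (2.13 to 2.35), and Ciita was at 258 CPM (213 to 310) against 33.2, a log2 ratio of 2.96 (2.15 to 3.88). Over monocytes, 9 of 13 were higher and 1 lower, where 12.8% of all 3113 genes were higher and 14.6% lower. H2-Ab1 was 6.13-fold higher there, and H2-DMb2 was at 374 CPM against 2.63 CPM from 1 UMI, a log2 ratio of 7.15 (4.65 to 12.46). The median log2 ratio of the list was 1.81 over mature dendritic cells and 2.37 over monocytes, against 0.23 and -0.02 over all genes.

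**Figure D3:**
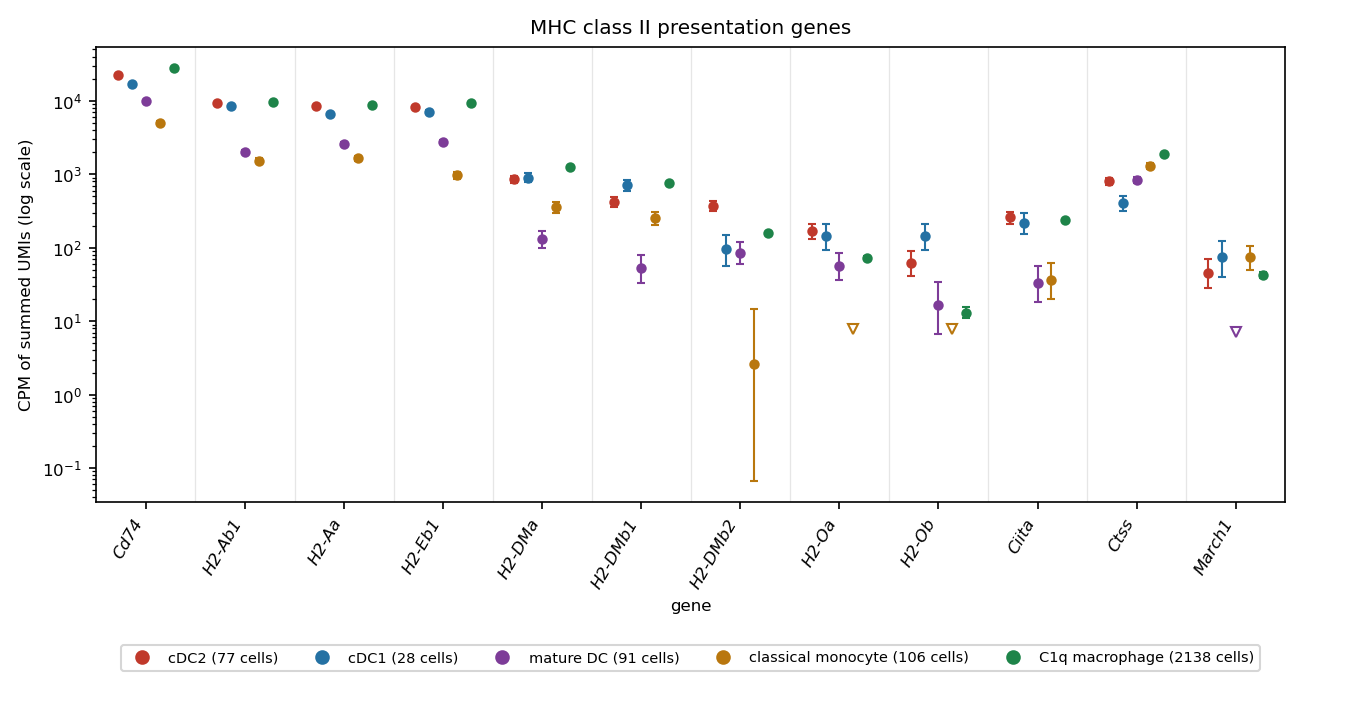
Levels of 12 class II presentation genes as CPM of summed UMIs on a log axis in cDC2, cDC1, mature dendritic cells, classical monocytes and C1q macrophages, with bars for the 95% counting interval and open triangles at the 3-UMI limit. Cd74 and the H2-A and H2-E chains of cDC2 stand beside those of cDC1 and C1q macrophages, and H2-DMb2 is highest in cDC2, at 374 CPM.

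MHC class I genes showed a different order. H2-K1 was at 769 CPM in cDC2, 808 in cDC1 and 2085 in mature dendritic cells, a log2 ratio of -1.44 (-1.62 to -1.26) to the last. B2m, the light chain of class I, was at 1256 against 2794 CPM. Of 14 class I genes tested against mature dendritic cells, 3 were higher, a share near the 21.5% of all genes, and 6 lower, against 13.2% of all genes.

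The maturation program set cDC2 apart from mature dendritic cells in a single direction. All 17 of the tested genes were lower in cDC2, with a median log2 ratio of -3.25. Over all genes tested, 13.2% were lower and the median was 0.23. Mature dendritic cells had been gated on Fscn1 and Ccr7, so that genes varying with these had to differ. Ccl22, a chemokine for regulatory T cells, was at 119 CPM (88.7 to 156) in cDC2 against 2384, Ccl5 at 45.7 against 4699, and Fabp5, a fatty acid carrier, at 212 against 3095 CPM. Il12b, the shared chain of IL-12 and IL-23, had 8 UMIs in cDC2, all in 1 cell.

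A few cDC2 carried transcripts of this program, although the rule allowed at most 1 UMI of Fscn1, a gene of the mature gate. Whether these cells were maturing was not tested. Ccr7, the receptor that guides dendritic cells to lymph nodes, had a UMI in 10 of 77 cells, and in 6.58% (2.17% to 14.7%) of 76 cells after thinning to 1000 UMIs. In 2 cells it reached 10 UMIs or more, with a maximum of 17. T cells, of which a part uses CCR7, stood at 14.2% and monocytes at 0 of 106.

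**Figure D4:**
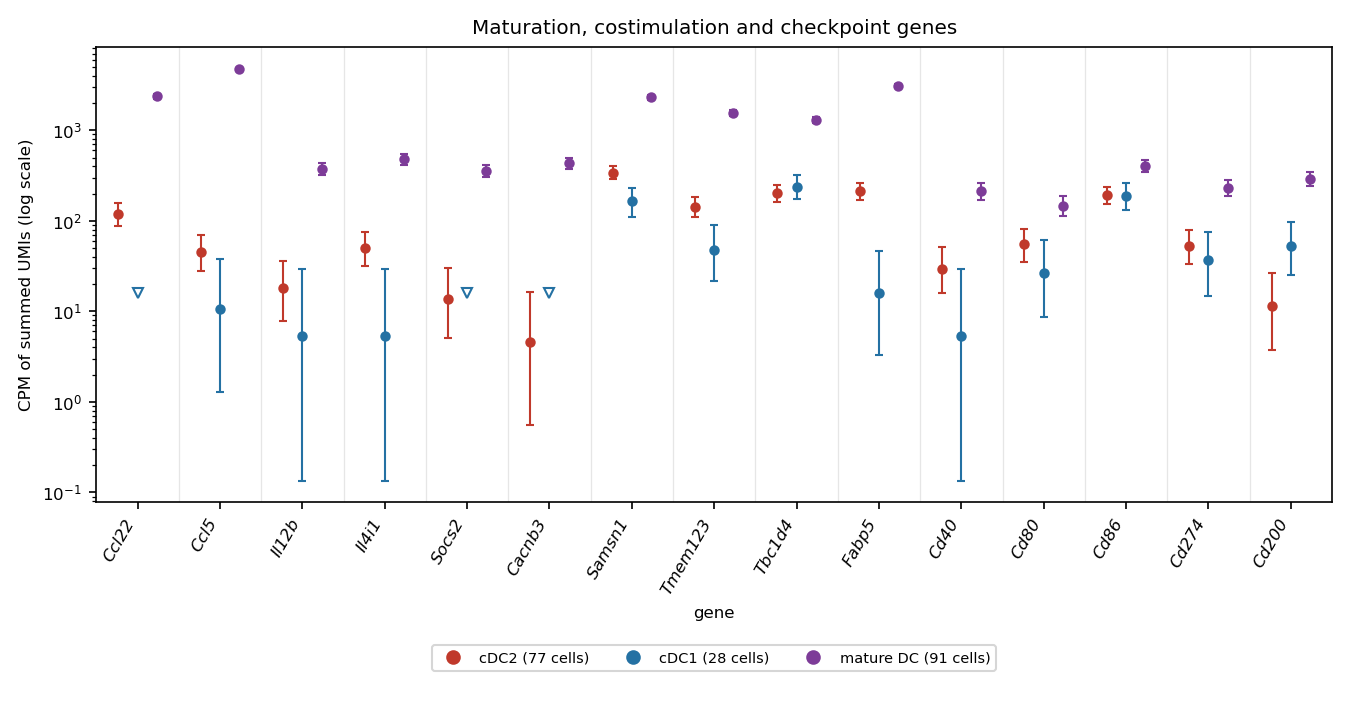
Levels of 15 maturation and costimulation genes as CPM of summed UMIs on a log axis in cDC2, cDC1 and mature dendritic cells, with bars for the 95% counting interval and open triangles at the 3-UMI limit. Every gene plotted is highest in mature dendritic cells, from Ccl5 at 4699 against 45.7 CPM in cDC2 to Cd86 at 403 against 192 CPM.

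Of 14 costimulatory and checkpoint ligands tested, 8 were lower than in mature dendritic cells, against 13.2% of all genes, and 4 higher, against 21.5%. Cd86, the main ligand of CD28, was at 192 CPM (153 to 237) in cDC2, 190 in cDC1, 403 in mature dendritic cells and 105 in monocytes. Cd274, encoding PD-L1, was at 52.5 against 232 CPM in mature dendritic cells, and Cd200 at 11.4 against 292 CPM. Tnfsf9, which encodes the 4-1BB ligand, was among the 4 that were higher. It was at 260 CPM (215 to 313) in cDC2, with at most 16 UMIs in a cell and a UMI in 33 cells, and at 10.6, 75.8 and 63.2 CPM in cDC1, mature dendritic cells and monocytes, with log2 ratios of 4.62, 1.78 and 2.04.

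Antigen uptake and sensing genes included several above their level in the other dendritic cells. Of the pattern recognition genes, 9 of 16 were higher and 4 lower against cDC1, 10 of 12 and 1 against mature dendritic cells, and 4 of 18 and 10 against monocytes. Over all genes the shares higher and lower were 13.3% and 7.97%, 21.5% and 13.2%, and 12.8% and 14.6% in the same order. Clec4n, encoding dectin-2, was at 258 CPM in cDC2, 37.0 in cDC1, 90.1 in mature dendritic cells and 111 in monocytes, so it was above all 3. Tlr2 was at 114 against 15.8 CPM in cDC1, whereas Tlr3 and Tlr11, endosomal receptors typical of cDC1, were at 9.13 and 2.28 against 100 and 52.8 CPM. Fcgr2b, the inhibitory Fc receptor, was at 386 CPM (330 to 449), against 84.5 in cDC1 and 23.7 in mature dendritic cells. Fcgr1, encoding CD64, which is used to tell monocyte-derived cells from cDC2, had 8 UMIs in 7 cells, 18.3 CPM against 60.6 in monocytes and 108 in C1q macrophages.

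Among secreted factors, Il1b, a proinflammatory cytokine, was at 2374 CPM (2232 to 2523) in cDC2 with a median of 10 UMIs a cell and at most 74. The monocyte level was 2543 CPM, and the log2 ratio of -0.10 (-0.23 to 0.03) had an interval that included 0. Il6 had 11 UMIs and Il10 none. Ccl9, a chemokine of the monocyte lineage, was at 215 CPM against 5.28 in cDC1 and 603 in monocytes. Alox5ap, which serves leukotriene synthesis, was at 676 CPM against 607 in cDC1 and 47.4 in mature dendritic cells.

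Proliferation genes were concentrated in a few cells. Of 494 UMIs over the 20 cell cycle genes, 444 lay in 7 cDC2 with 12 to 144 each, whose median depth was 9742 UMIs. After thinning, 11.8% (5.56% to 21.3%) of cDC2 had at least 2 such UMIs (22.1% without thinning), against 10.7% of cDC1, 5.49% of mature dendritic cells, 0.943% of monocytes and 5.12% of T cells. Mki67, a marker of cycling cells, was at 137 CPM in cDC2, 132 in cDC1, 33.2 in mature dendritic cells and 2.63 in monocytes. No phase was called from these genes.

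Most monocyte genes were below their level in monocytes. Of 10 monocyte genes tested, 8 were lower in cDC2 and 1 higher, against 14.6% and 12.8% of all genes. The monocytes had been gated on Ly6c2, Csf1r and other monocyte genes, so that genes varying with these had to differ. Cd14, a coreceptor for lipopolysaccharide, was at 324 CPM (273 to 382) in cDC2, 1227 in monocytes, 158 in cDC1 and 142 in mature dendritic cells. Lyz2 was at 1530 CPM in cDC2, with 0 to 203 UMIs a cell and a median of 1, and at 19833 CPM in monocytes, a log2 ratio of -3.70 (-3.81 to -3.58), or -4.38 without the 2 TdTomato cells. Cebpb, a factor of monocytes and granulocytes, was at 144 CPM against 2564 CPM. The interferon-stimulated genes were lower than in monocytes for 12 of 15 tested, against 14.6% of all genes, among them Ifitm3, a viral restriction factor, at 970 against 5576 CPM. Epcam, an adhesion molecule, was at 584 CPM (515 to 661) and had no UMI in monocytes, at least 74.0-fold higher, and Cdh1 at 228 CPM was at least 28.9-fold higher. The monocyte gate limited Cd209a, Clec10a, Ccl17 and Mgl2, so genes varying with these also had to differ. Epcam and Cdh1 are also epithelial genes. The 12 epithelial markers summed to 872 CPM in cDC2, with 5 at 0, and came to 19 UMIs in all in monocytes, with 7 at 0. Sftpc, the surfactant transcript of alveolar epithelium, was at 41.1 CPM in cDC2 and at 1071 CPM in T cells. The part of epithelial RNA in these levels was not tested.

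Set against C1q macrophages, which share high class II, cDC2 had H2-Ab1 1.03-fold lower and Epcam 1.44-fold higher. Apoe was 912-fold lower, from 2 UMIs, and Cxcl2, a chemokine for neutrophils, 8.81-fold lower. Higher were Ms4a4c (37.5-fold), Cd209d (15.1-fold), Kit, a stem cell factor receptor (9.12-fold), and Tcf4 (3.56-fold). C1q genes and Flt3 were part of the gates.

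The 77 cDC2 were not uniform. The plan had been to split them by Mgl2 and by Cd209a. A split by Ccl17 was added after its pattern was seen, and it is described without a test. The rule ties the 4 marker genes to one another, because a cell without Ccl17 must reach 3 UMIs through the others, so these genes are not compared. The 46 cDC2 with a Ccl17 UMI had a median of 6260 UMIs and the 31 without had 3560, and 4 of the 46 had exactly 1 Ccl17 UMI. The effect of that depth gap was measured by keeping cells with 3000 to 9000 UMIs, and by thinning.

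A set of genes named after their values were seen was higher in cDC2 with Ccl17. Plet1, a surface protein of epithelial progenitors and of mucosal dendritic cells, was at 735 CPM with Ccl17 and 16.9 CPM without, a log2 ratio of 5.44 (3.57 to 8.50). Per cell it ranged from 0 to 20 UMIs with a median of 3 where Ccl17 was present, and did not exceed 1 UMI where it was absent. Epcam was at 763 against 102 CPM, a log2 ratio of 2.91 (2.08 to 3.88). Mfge8, a bridge to apoptotic cells, Mmp12, Clec4n, Cd24a and Id2 had log2 ratios of 3.49, 3.07, 3.76, 2.73 and 2.06. In thinned cells, Plet1 was found in 44.4% of 45 cells with Ccl17 and 0 of 31 without, and Epcam in 44.4% and 3.23%. The 28 actin, migration and adhesion genes as a list had a log2 ratio of 0.25. The alveolar macrophage markers, which include Plet1, summed to 1964 CPM with and 118 CPM without Ccl17, and to 967 CPM with Ccl17 when the 2 TdTomato cells were left out. The epithelial markers, which include Epcam and Cdh1, summed to 1098 and 262 CPM. The part of such cells in the split was not tested.

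Another set, likewise named after its values were seen, was higher in cDC2 without Ccl17 and is also high in monocytes. Plac8, F13a1 and Ccr2 of this set were genes of the monocyte gate, so their level in monocytes was shaped by it. Ifitm3 was at 2800 CPM without Ccl17 and 294 CPM with it, a log2 ratio of -3.25 (-3.60 to -2.92) for with over without. Its median was 9 UMIs a cell in the first set and 1 in the second, although both ranged down to 0. Plac8, a small protein of monocytes, was at 880 against 59.4 CPM, Ifitm6 at 414 against 18.8, and Fn1, encoding fibronectin, at 220 against 21.9, or 3.38 CPM without the 2 TdTomato cells. F13a1, the A chain of clotting factor XIII, had 28 UMIs without Ccl17 and none with it, at least 25.2-fold higher. Ccr2, the receptor by which monocytes leave the marrow, was at 440 against 141 CPM. Not all monocyte genes were lower with Ccl17. Cd14 was at 350 CPM with and 254 without it, Csf1r, a gene of the monocyte gate, at 93.8 and 102, and Fcgr1 at 21.9 and 8.46, from 7 and 1 UMIs. Over the 10 monocyte genes outside the gates the log2 ratio was -0.76. These include Chil3 and Lyz2, of which the 2 TdTomato cells, both with Ccl17, held 255 and 275 UMIs. The ratio of this list without the 2 cells was not computed. Over the 26 interferon-stimulated genes the sums were 4559 CPM without and 1185 CPM with Ccl17. Ifitm3 alone supplied 2800 and 294 CPM of these sums. Lyz2 was at 2850 against 1041 CPM, and at 196 CPM with Ccl17 when the 2 TdTomato cells were left out. Ly6c2, the monocyte marker used to gate that class, had a UMI in 3 of the 77 cDC2. The Lyz2 level of cDC2 without Ccl17 was below the 19833 CPM of monocytes.

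The main class II chains and Tcf4 differed little across the split. H2-Ab1 had a median of 9906 CPM over cells with Ccl17 and 8435 CPM over cells without, with the ranges overlapping, and Cd74 and H2-Eb1 had log2 ratios of 0.25 and 0.35. Tcf4 was at 316 and 347 CPM, a log2 ratio of -0.13 (-0.67 to 0.43). Other genes that the text names above did differ. H2-DMb2 was higher with Ccl17 (447 against 178 CPM) and H2-DMb1 lower (322 against 685 CPM), the 2 paralogs again lying in opposite directions. Tnfsf9 was higher without Ccl17, at 465 against 185 CPM.

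The same split was then made in cells the rule did not admit, the 283 that passed every line but had no Flt3 UMI. Of these, 220 had a Ccl17 UMI and 63 did not. Plet1 was at 620 against 156 CPM, Epcam at 744 against 152, and Mfge8 at 647 against 52.2. In the other direction, Ifitm3 was at 364 CPM with and 2106 CPM without Ccl17, Plac8 at 26.3 against 582, Ifitm6 at 13.6 against 201 and Lyz2 at 346 against 3554. H2-Eb1 was at 9066 and 9058 CPM and Tcf4 at 150 and 181 CPM. The directions for these genes were those of the 77 cDC2, and the 2 H2-DMb paralogs again differed, with log2 ratios of 1.46 for H2-DMb2 and -1.08 for H2-DMb1. Mrc1 was the plotted gene above 1 on the log2 scale in cDC2 that lay below 0 in these cells.

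**Figure D5:**
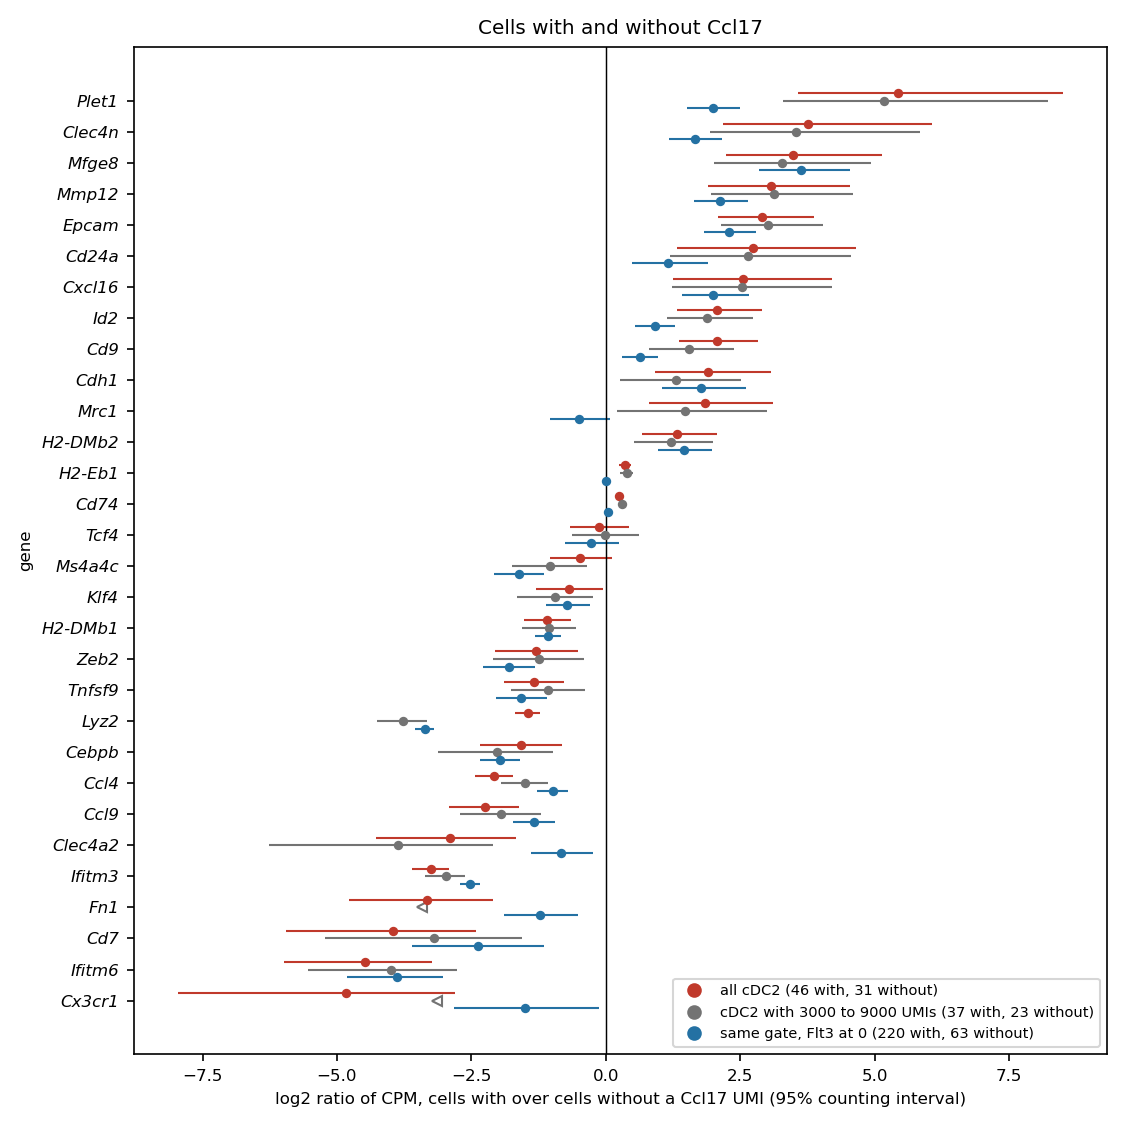
Log2 ratios of CPM between cells with and cells without a Ccl17 UMI for 30 genes, with 95% counting intervals, in all 77 cDC2 (46 with, 31 without), in cDC2 of 3000 to 9000 UMIs, and in the 283 cells that passed the gate but for Flt3. Arrowheads mark the interval's bound where one side had no UMI. Plet1, Mfge8 and Epcam lie to the right of 0 and Ifitm3, Ifitm6 and Cx3cr1 to the left in all 3 sets, and Tcf4 has an interval that crosses 0 in each.

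Cells without the Flt3 UMI were near to cDC2 in the level of some genes and not of others. Their H2-Ab1 was at 9962 CPM and Epcam at 635 CPM. Tcf4, Tnfsf9, Plac8 and Ms4a4c were 2.09-, 2.18-, 2.18- and 2.25-fold higher in cDC2, and Cxcl2 3.14-fold lower. Fewer Flt3 molecules and missed capture of them cannot be told apart at this depth. Whether some of these cells were of another kind was not tested.

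The 2 planned splits gave partly the same genes. With Mgl2 (55 cells) against without (22 cells), Epcam, Plet1, Cdh1 and Mmp12 had log2 ratios of 2.39, 2.43, 3.38 and 4.91, and Ifitm3, Ifitm6 and Fn1 of -1.93, -2.28 and -2.85. With Cd209a (45 cells) against without (32 cells), Epcam was level at 0.03, and Fn1, F13a1 and Lyz2 had log2 ratios of 2.52, 2.25 and 2.26. Without the 2 TdTomato cells the Lyz2 ratio was 1.47 in this split. Cd209d, a close relative of Cd209a whose reads may be mixed with it, had a log2 ratio of 3.03 in the Cd209a split.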

How the data were processed

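Single-cell RNA-seq libraries (10x 3′ chemistry, polyA RNA) of total viable tumor cells from 4 mice were processed by the authors with Cell Ranger 3.0.2 against mm10, with GFP and TdTomato added as features. The deposited values were raw UMI counts per gene and cell in 1 matrix pooling all mice, with gene symbols and identifiers deposited beside it as other, non-numeric columns. Cells with at least 200 genes and at most 13.4% mitochondrial UMIs were kept. Gates were applied to raw UMIs, counts were summed per class and scaled to CPM, and exact Poisson, conditional and Clopper-Pearson intervals (95%) were computed with Python 3.11.15, numpy 2.4.6, scipy 1.17.1 and pandas 2.3.3. A class at 0 was set to 3 UMIs before a 2-fold call among genes at 50 CPM or more in either class, the 23 gate genes left out. Shares of cells with a UMI were also taken after thinning to 1000 UMIs, which left out shallower cells.

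Named genes were those of 32 gene lists (513 genes, of which 3 were not analysed here) and the 10 with the largest ratio in each direction in each of the 3 comparisons, by log2 ratios with a pseudocount of 10 CPM, and over all 3. The members and lists were chosen with earlier results of these data known. The Ccl17 split, its repeat in cells without Flt3, and the genes named in it were chosen after the values were seen. Doublets were not removed. Scrublet, through scanpy 1.11.5, called 175 of 19892 cells (0.880%), 2 of them cDC2. Promoter sequences came from RefSeq (GRCm38.p6). The scripts were tested on simulated data. No library-level test was possible, and replicates were not told apart. Alternatives covered the cell filter, gate, thinning depth, scaling, call thresholds, doublets and the cells of high TdTomato.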

Additional observations from a re-analysis of the deposited data

How the results depend on the processing

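Over 109 gene ratios and 1123 values under alternatives, a change of sign was counted only where the main ratio was at least 2-fold. By that count 1 ratio to another class changed sign (Chil3, not among these, is given above). S100a8 in cDC2 over cDC1 was 0.28 on the log2 scale once the 6 cDC1 cells with neutrophil transcripts were left out. Changes of sign in smaller ratios were not counted. The cDC2 share was 0.302% with a marker sum of at least 5 and 1.81% (360 cells) without the Flt3 line. Genes higher and lower than in cDC1 numbered 395 and 236, and 724 and 480 at 1.5-fold, 187 and 105 at 3-fold, 924 and 677 from 20 CPM, and 152 and 98 from 100 CPM, with 399 lower when mitochondrial and ribosomal protein genes were left out of the total. Against mature dendritic cells 640 and 394 became 1027 and 608, 326 and 227, 1318 and 737, and 293 and 211 in the same order, and against monocytes 398 and 455 became 705 and 780, 192 and 244, 953 and 912, and 171 and 251. These counts follow from the thresholds. The share of cDC2 with a Ccr7 UMI was 1.30% after thinning to 500 UMIs, and that with at least 2 cell cycle UMIs 22.1% without thinning.

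In the splits, changes of sign were again counted only for ratios of at least 2-fold. They belonged to transcripts concentrated in the 2 TdTomato cells or in deep cells. In the Ccl17 split, Chil3 was -1.20 among cells of 3000 to 9000 UMIs, and TdTomato was -0.94 without the 2 cells and -0.61 in that depth range. In the Mgl2 split, Chil3 was -0.55 and -1.54, and Mki67 -0.69 in the depth range. In the Cd209a split, Chil3 was -1.77 and -0.35. No paired analysis was possible because replicate numbers followed accession order and cells were not tied to mice. Depth limits genes under about 3 UMIs (6.85 CPM in cDC2, 15.8 in cDC1), and cDC1 levels rest on 28 cells.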
